A study of Mus musculus with 23 samples.

Results

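Glycolysis breaks glucose down to pyruvate, and this report describes the RNA of 10 genes that carry out or follow that pathway in the mouse sciatic nerve (SN). The genes were chosen by name: the hexokinases Hk1 and Hk2, the phosphofructokinase subunits Pfkl, Pfkm and Pfkp, the kinases Pgk1 and Pkm, the lactate dehydrogenase subunit Ldha, and the lactate transporters Slc16a1 and Slc16a3. The rule is a list of symbols and has no threshold on a measured value. All 10 were found among the 43068 genes listed for the crush libraries and among the 22880 genes listed for the inducible knockout (iKO) libraries.

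RNA of whole SNs was sequenced in 23 libraries of 7 groups, all from C57bl6 mice. In the crush experiment, 2-month-old males had 1 SN crushed, and the piece distal to the injury was taken at 3 days post crush (3 dpc; n = 4), beside the contralateral SN of operated mice (n = 4) and uncrushed SNs of other mice (n = 3). In the iKO experiment, adult mice received tamoxifen on 5 days in a row at an age of 8 to 10 weeks, and SNs were taken 3 months post tamoxifen (3 mpT; n = 3 in each of 4 groups). Dicer iKO mice were P0-CreERT2 -/+ with both Dicer1 alleles floxed, Dgcr8 iKO mice were P0-CreERT2 -/+ with both Dgcr8 alleles floxed, and the controls of each line carried the same floxed alleles without the Cre and received tamoxifen too. Dicer cuts precursor RNAs to mature microRNAs, and Dgcr8 is the RNA-binding partner of Drosha in the microprocessor, which acts one step before.

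The Cre is active in myelinating Schwann cells, so the other cells of the mutant nerves keep their alleles. Mutant nerves were taken only where the mice showed the affected morphology. Each library is 1 nerve sample, and the labels do not say that equal replicate numbers mark 1 mouse. The title and the description of an uncrushed sample give different replicate numbers, of which that of the title, 3, is used. Crush and iKO libraries were made with different kits per the labels (SMARTer pico-input and stranded TruSeq with Ribo-Zero), and levels were therefore not compared between the 2 experiments.

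Hexokinases trap glucose in the cell, phosphofructokinase commits it to glycolysis, and Pgk1 and Pkm catalyse the steps that yield ATP. Ldha turns pyruvate into lactate, and the monocarboxylate transporters MCT1 (Slc16a1) and MCT4 (Slc16a3) carry lactate across the cell membrane. Schwann cells are known to pass lactate to the axons they wrap, for which MCT1 is the best studied transporter, while MCT4 is known from strongly glycolytic cells. Hk2, Pfkp and the M2 form of pyruvate kinase are forms that are high in many growing or activated cells, whereas Hk1 and Pfkm dominate in many resting tissues.

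The libraries held 6617716 to 12806066 counts in the crush experiment and 5594859 to 10143244 in the iKO experiment, and levels are given as CPM, the counts scaled to library size, on which 3 counts equalled 0.234 to 0.536. Replicates of a group differed more than counting noise in every one of 27 pairs compared. Counts of whole genes cannot check the deletions, since reads outside the deleted exons count too: Dicer1 was at 81.0 to 82.8 CPM in Dicer iKO and 88.0 to 91.0 CPM in its controls (adjusted p = 0.357 by edgeR's quasi-likelihood test), and Dgcr8 was at 39.3 to 53.7 CPM in Dgcr8 iKO and 34.8 to 41.9 CPM in its controls (adjusted p = 0.233). The cell make-up of the nerves moved with the groups. The summed level of 7 myelin genes fell from between 36138 and 55018 CPM in the unlesioned SNs to between 1930 and 3000 CPM at 3 dpc, and stood at 14467 to 28047 CPM in Dgcr8 iKO against 42385 to 45532 CPM in its controls. In Dicer iKO it was 22063 to 27218 CPM against 27603 to 46271 CPM. The sum of 10 macrophage genes was 88.5 to 160 CPM in unlesioned SNs and 725 to 1746 CPM at 3 dpc, 2453 to 5796 CPM in Dgcr8 iKO against 260 to 307 CPM, and 3672 to 6687 CPM in Dicer iKO against 272 to 934 CPM. The sum of 5 genes of dividing cells was 17.3 to 35.1 CPM in unlesioned SNs and 790 to 1190 CPM at 3 dpc, 8.0 to 11.7 CPM in Dgcr8 controls and 203 to 302 CPM in Dgcr8 iKO, and 5.84 to 14 CPM in Dicer controls and 76.1 to 109 CPM in Dicer iKO. A sum of 5 fibroblast genes was 12895 to 16089 CPM in Dgcr8 iKO against 6211 to 7796 CPM, and 16736 to 17337 CPM in Dicer iKO against 5370 to 14147 CPM, but 2676 to 3141 CPM at 3 dpc against 3730 to 4655 CPM in unlesioned SNs. The part of these cells in the results was not tested, and in RNA of a whole nerve, fewer cells of a type and less RNA per cell cannot be told apart.

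At 3 dpc, 7 of the 10 genes were higher than in uncrushed SNs and 2 were lower (Hk2, Slc16a3, Pfkp, Pgk1, Ldha, Pkm and Pfkl higher, Pfkm and Slc16a1 lower), by edgeR's quasi-likelihood test at an adjusted p of at most 0.05. Of all 17433 genes tested, 67.2% passed in this comparison, 33.8% upward and 33.4% downward. With a change of at least 2-fold as a further condition, 6 genes were higher and 1 was lower, where the background was 15.3% and 21.1%. Against the contralateral SNs, 6 genes were higher and 2 lower, as for uncrushed SNs but without Pfkl. There 66.4% of 16667 genes passed, 33.5% upward and 32.9% downward, and 5 genes were at least 2-fold higher and 1 at least 2-fold lower against backgrounds of 14.6% and 13.6%. Both comparisons use the same 4 crushed libraries, so the second is not an independent repeat of the first. The median log2 fold change of the 10 genes was 1.21 and 0.99, beside -0.03 and -0.06 over all genes tested. Slc16a3 passed the filter on low counts through the crushed libraries, where it is high, and without it 6 genes were higher (5 at least 2-fold) against uncrushed and 5 (4 at least 2-fold) against contralateral SNs, with medians of 1.13 and 0.90 over 9 genes.

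**Figure D1:**
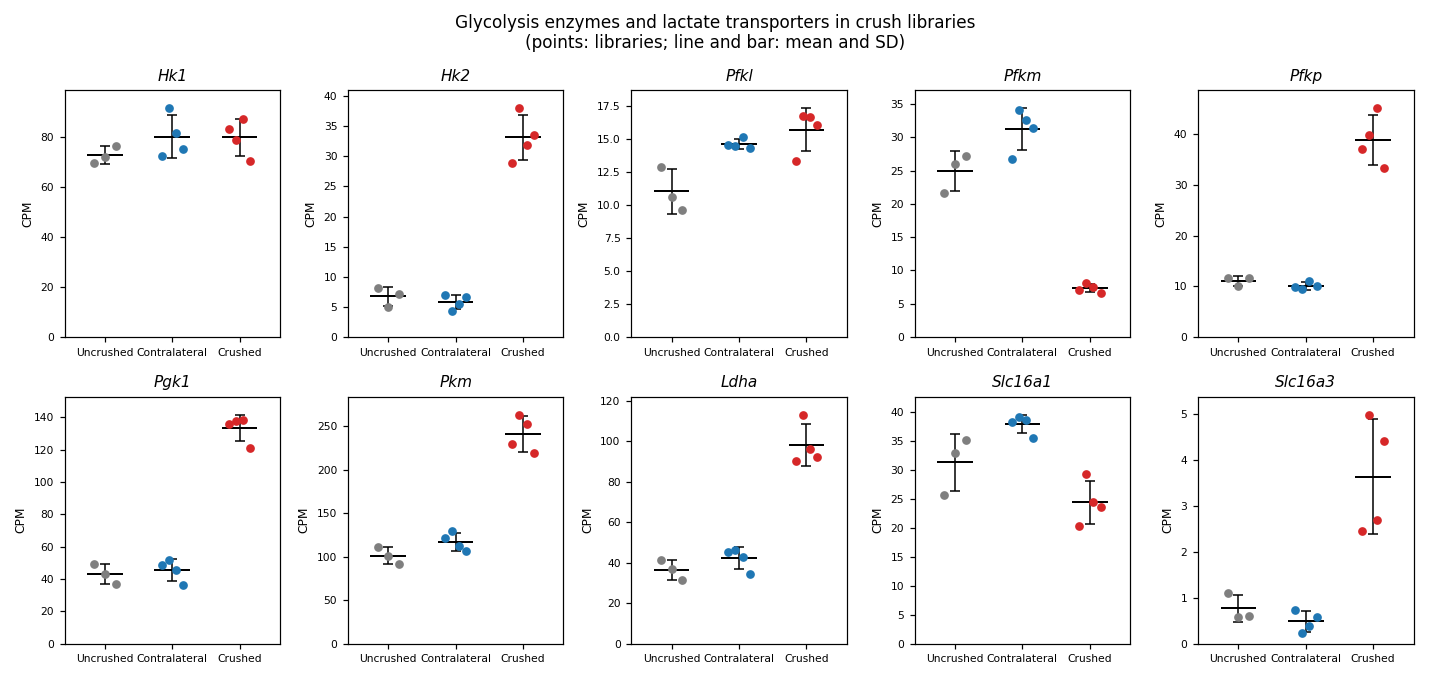
Level in CPM (y axis, from 0) of each of the 10 genes in uncrushed, contralateral and crushed SNs; points are libraries, lines and bars the mean and SD (n = 3, 4 and 4). Hk2, Pfkp, Pgk1, Pkm, Ldha and Slc16a3 are higher and Pfkm is lower in all 4 crushed libraries than in any unlesioned one, while Hk1 overlaps between the groups. The share of all genes without overlap is not given.

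The mutants were compared with the controls of their own line. In Dgcr8 iKO, Slc16a3, Hk2, Pfkp and Ldha were higher and Pfkm and Hk1 lower than in the controls, 4 and 2 of 10 genes, where 23.9% of 13252 genes passed upward and 20.6% downward. In Dicer iKO, Slc16a3 and Ldha were higher and Hk1 and Pfkm lower, 2 and 2 of 10 genes, where 12.3% of 13045 genes passed upward and 8.88% downward. At least 2-fold changes were called for Hk2 and Slc16a3 in Dgcr8 iKO (background 13.4% higher and 6.99% lower) and for Slc16a3 in Dicer iKO (7.37% and 1.64%), all higher. Slc16a3 passed the low-count filter through the mutant libraries, where it is high. Without it, 3 genes were higher in Dgcr8 iKO (1 at least 2-fold) and 1 in Dicer iKO (0 at least 2-fold). The Dicer calls changed when single libraries were left out: without Dicer control 2 or Dicer iKO 2 no member was called in either direction, and 718 and 259 or 702 and 177 of all genes passed upward and downward in place of 1605 and 1159. Without Dicer iKO 3, 0 members were higher and 1 lower (668 and 173 of all genes), and without Dicer control 3, 0 were higher and 3 lower. The median log2 fold change of the 10 genes was 0.24 in Dgcr8 iKO and 0.03 in Dicer iKO, against -0.01 over all genes in both. Without Slc16a3 the medians were 0.12 and -0.07 over 9 genes. The difference between the effects of the 2 mutations was tested as an interaction, and no member passed (adjusted p from 0.361 for Slc16a1 to 0.868 for Pfkl, edgeR's quasi-likelihood test), where 0.0148% of 13552 genes did (0.00738% in each direction). A gene called in 1 mutant only is therefore not shown to differ between them.

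**Figure D2:**
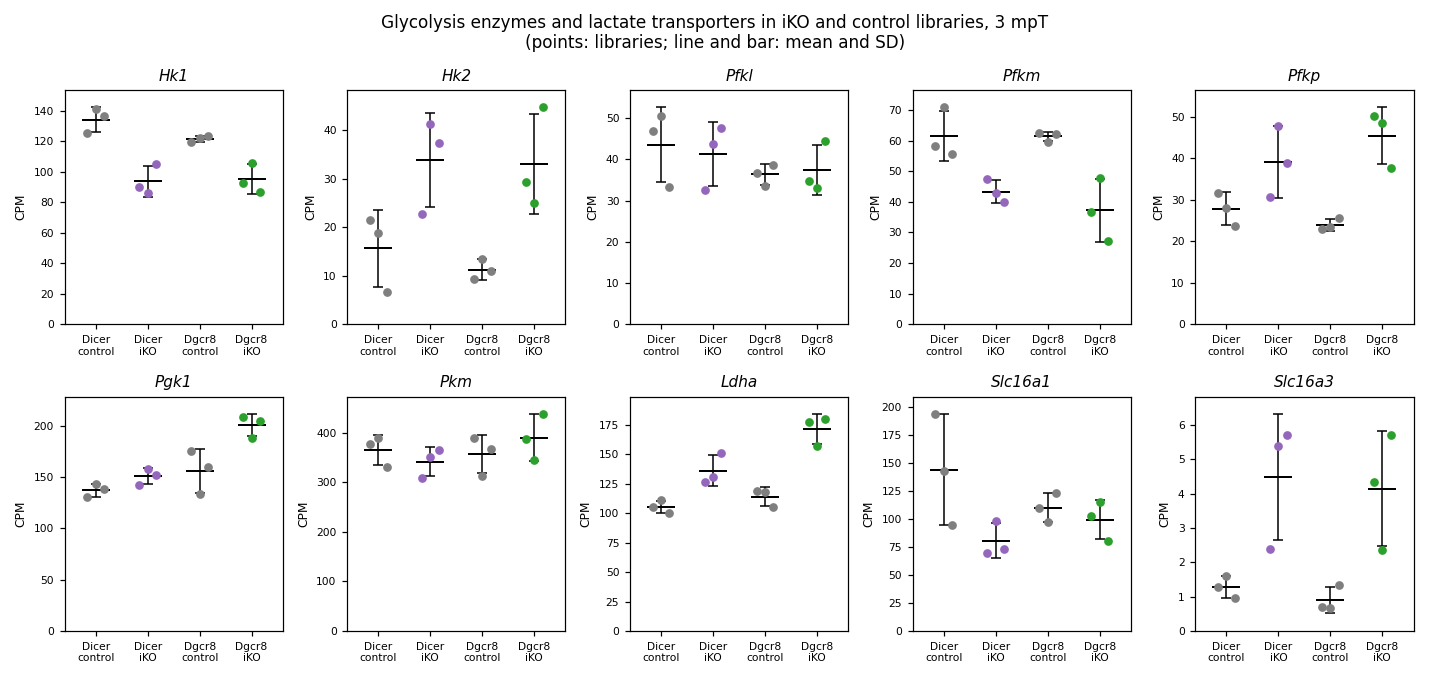
Level in CPM (y axis, from 0) of each gene at 3 mpT in Dicer iKO, Dgcr8 iKO and the controls of each line; points are libraries, lines and bars the mean and SD (n = 3 per group). Hk2, Ldha and Slc16a3 are higher and Hk1 and Pfkm lower in all 3 libraries of either mutant than in its controls. Hk2 is not called in Dicer iKO, and the share of all genes without overlap is not given.

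Contralateral and uncrushed SNs served as 2 kinds of unlesioned nerve. Of 17722 genes tested, 0 (0%) passed edgeR's quasi-likelihood test, 3165 had an unadjusted p under 0.05, and DESeq2 called 272 (167 higher and 105 lower in contralateral SNs). None of the 9 members tested passed by edgeR, with log2 fold changes between -0.30 (Hk2) and 0.31 (Pfkl), and Slc16a3 had too few counts to be tested.

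**Figure D3:**
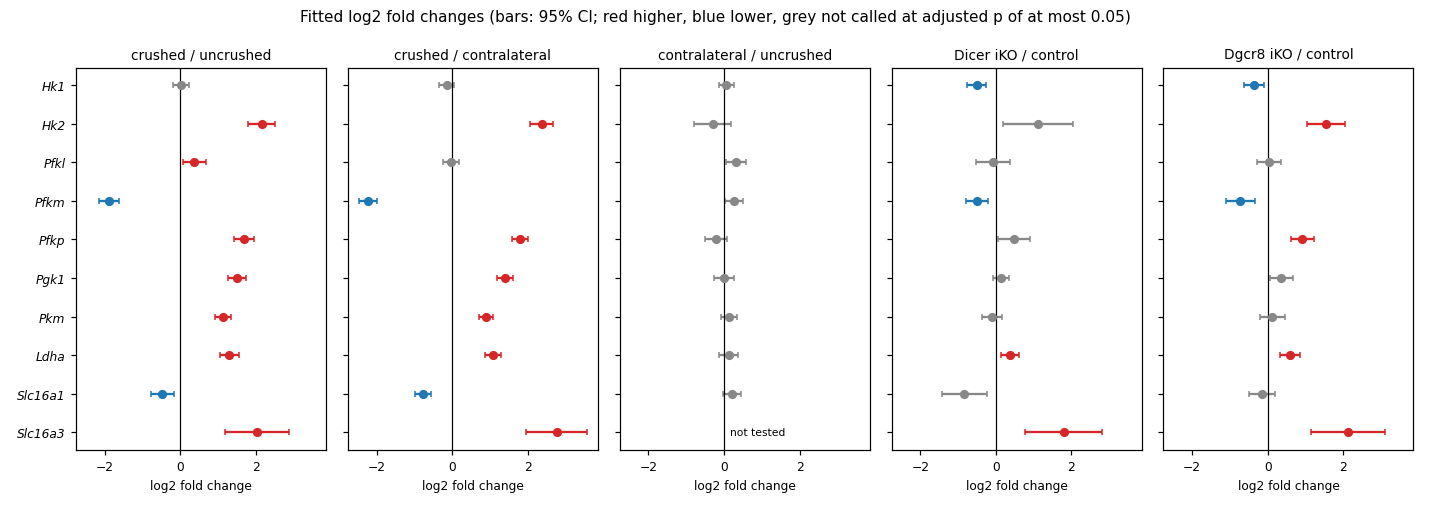
Log2 fold change (x axis) of the 10 genes in the 5 comparisons, with 95% confidence intervals as bars and colours for the call at an adjusted p of at most 0.05. Hk2, Pfkp, Pgk1, Ldha and Slc16a3 lie right of 0 in both comparisons of crushed SNs and in both mutants, and Pfkm and Slc16a1 left of 0. Hk2 and Pfkp are not called in Dicer iKO, and Pgk1 and Slc16a1 are not called in either mutant.

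Overlap of groups is stated below for each member as a description, and the share of all genes without overlap is not given. Hexokinases take the first step. Hk1 (ENSMUSG00000037012, chromosome 10, 62268855 to 62379908, minus strand; all positions are on GRCm38) was at 83.3, 78.6, 87.0 and 70.1 CPM in crushed SNs, 72.3, 91.4, 81.5 and 75.0 CPM in contralateral SNs and 69.5, 71.8 and 76.5 CPM in uncrushed SNs. The 3 ranges overlapped, and no difference passed the test: the log2 fold change at 3 dpc was 0.02 (95% CI -0.19 to 0.22) against uncrushed and -0.15 (-0.34 to 0.05) against contralateral SNs. In Dgcr8 iKO it was at 92.6, 106 and 86.8 CPM against 120, 122 and 123 CPM in the controls, and in Dicer iKO at 89.9, 86.2 and 105 CPM against 125, 141 and 136 CPM. Every mutant library was below every control library of its line. The log2 fold changes were -0.36 ± 0.12 (SE; adjusted p = 0.0303 by edgeR's quasi-likelihood test) in Dgcr8 iKO and -0.51 ± 0.11 (adjusted p = 0.0168) in Dicer iKO. The Dgcr8 call was lost without Dgcr8 control 1 or 3 or Dgcr8 iKO 1 or 3 (adjusted p = 0.0626 to 0.11), and the Dicer call without Dicer control 2 (0.0752) or Dicer iKO 2 (0.091).

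Hk2 (ENSMUSG00000000628, chromosome 6, 82725025 to 82774454, minus strand) was at 29.0, 38.0, 32.0 and 33.6 CPM in crushed SNs. It was at 6.98, 4.28, 5.58 and 6.60 CPM in contralateral and 8.12, 5.06 and 7.17 CPM in uncrushed SNs. The lowest crushed library was more than the highest unlesioned one, and the fitted rise was 4.45-fold against uncrushed (log2 2.15 ± 0.16 (SE), adjusted p = 2.16e-07 by edgeR's quasi-likelihood test) and 5.17-fold against contralateral SNs (log2 2.37 ± 0.14, adjusted p = 1.85e-09). In Dgcr8 iKO, Hk2 was at 29.4, 24.96 and 44.7 CPM against 9.30, 13.5 and 11.01 CPM, a rise of 2.92-fold (log2 1.55 ± 0.23, adjusted p = 0.000295) with no overlap. In Dicer iKO, it was at 22.8, 41.2 and 37.3 CPM against 21.5, 18.7 and 6.65 CPM. These ranges did not overlap either, but Dicer control 3 lay far below the other 2 controls, and the log2 difference of 1.11 ± 0.40 did not pass (adjusted p = 0.0876). Without Dicer control 1 it was 1.41 and passed (adjusted p = 0.0483). That library also held the highest sums of 5 erythrocyte genes (3745 CPM, against 78.7 and 309 CPM in the other Dicer controls) and of the macrophage genes (934 CPM) among the iKO controls, and their part in the Hk2 values was not tested.

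Per length, Hk1 stayed the main hexokinase of the pair in every library. The unit TPM corrects for transcript length, so it allows levels of different genes to be compared, and it was rescaled here to transcripts of at least 300 bases. The share of Hk2 in the summed TPM of both genes was 4.66% ± 1.57 (SD, n = 3) in uncrushed, 3.51% ± 0.179 (n = 4) in contralateral and 17.1% ± 2.74 (n = 4) in crushed SNs. It was 17.0% ± 4.76 in Dgcr8 iKO against 5.69% ± 1.04, and 16.4% ± 4.58 in Dicer iKO against 6.63% ± 2.88 (SD, n = 3 each). Of the other hexokinases, Hk3, known from myeloid cells, and the ADP-dependent glucokinase Adpgk were higher in the 4 comparisons with lesioned or mutant nerves, Hk3 with log2 fold changes of 2.09 and 2.52 in crushed SNs, 3.18 in Dgcr8 iKO and 2.59 in Dicer iKO, and Adpgk between 0.65 and 1.17. Of 10 macrophage genes, 10 were higher in crushed SNs (33.8% and 33.5% of all genes against uncrushed and contralateral SNs). In Dgcr8 iKO 9 were higher (23.9% of all genes), and in Dicer iKO 8 (12.3%). The part of macrophages in the hexokinase values was not tested. Hkdc1 had too few counts to be tested.

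Phosphofructokinase is a tetramer of the muscle-type (Pfkm), liver-type (Pfkl) and platelet-type (Pfkp) subunits. Pfkm (ENSMUSG00000033065, chromosome 15, 98092589 to 98132451, plus strand) was at 7.09, 8.10, 7.49 and 6.62 CPM in crushed SNs. It was at 26.7, 34.1, 32.6 and 31.3 CPM in contralateral and 21.6, 26.0 and 27.2 CPM in uncrushed SNs. All crushed libraries were far below, and the fall was 3.68-fold against uncrushed (log2 -1.88 ± 0.12 (SE), adjusted p = 7.14e-08 by edgeR's quasi-likelihood test) and 4.68-fold against contralateral SNs (log2 -2.23 ± 0.11, adjusted p = 2.49e-10). Dgcr8 iKO SNs held it at 36.6, 47.9 and 27.3 CPM against 62.4, 59.6 and 62.2 CPM (log2 -0.72 ± 0.18, adjusted p = 0.00658). Dicer iKO SNs held it at 47.3, 42.9 and 39.8 CPM against 58.3, 70.9 and 55.7 CPM (log2 -0.50 ± 0.13, adjusted p = 0.0291). Neither mutant overlapped with its controls. The Dicer call was lost without Dicer control 2, Dicer iKO 2 or Dicer iKO 3 (adjusted p = 0.108 to 0.125). The sum of 8 skeletal muscle genes, a possible source of Pfkm RNA from outside the nerve, was at most 13.1 CPM in the crush libraries and at most 23.9 CPM in the iKO libraries, with 1.80 to 2.80 CPM in crushed against 8.24 to 13.1 CPM in uncrushed SNs. Its part in the fall of Pfkm was not tested.

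Pfkp (ENSMUSG00000021196, chromosome 13, 6579768 to 6648777, minus strand) moved the other way. It was at 37.1, 39.9, 45.1 and 33.4 CPM in crushed SNs against 9.83, 9.41, 11.2 and 10.05 CPM in contralateral and 11.7, 10 and 11.6 CPM in uncrushed SNs. The 2 unlesioned groups overlapped and the crushed group stood apart, with a rise of 3.21-fold against uncrushed (log2 1.68 ± 0.12 (SE), adjusted p = 1.36e-07 by edgeR's quasi-likelihood test) and 3.49-fold against contralateral SNs (log2 1.80 ± 0.10, adjusted p = 8.79e-10). In Dgcr8 iKO it was at 50.2, 48.4 and 37.6 CPM against 22.9, 23.3 and 25.6 CPM, a rise of 1.89-fold (log2 0.92 ± 0.14, adjusted p = 0.000389). In Dicer iKO it was at 30.6, 47.8 and 38.8 CPM against 31.7, 28.1 and 23.8 CPM. Dicer iKO 1 lay below Dicer control 1, and the log2 difference of 0.49 ± 0.18 did not pass (adjusted p = 0.0974), though it was 0.65 without Dicer iKO 1 and passed (adjusted p = 0.0367).

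Pfkl (ENSMUSG00000020277, chromosome 10, 77986947 to 78010083, minus strand) had the smallest fitted change of the 3 in crushed SNs and in both mutants. It was at 13.3, 16.7, 16.7 and 16.1 CPM in crushed SNs, 14.5, 14.5, 15.2 and 14.3 CPM in contralateral SNs and 12.9, 10.6 and 9.62 CPM in uncrushed SNs. The crushed libraries lay just above the uncrushed ones and on both sides of the contralateral ones. The log2 fold change was 0.37 ± 0.14 (SE) against uncrushed SNs (adjusted p = 0.0328 by edgeR's quasi-likelihood test) and -0.04 ± 0.10 against contralateral SNs (adjusted p = 0.769). The first call was lost when Crushed 2, 3 or 4 or Uncrushed 2 or 3 was left out (adjusted p = 0.0777 to 0.09). It was at 34.8, 33.0 and 44.5 CPM in Dgcr8 iKO against 36.7, 33.6 and 38.7 CPM, and at 32.6, 43.8 and 47.6 CPM in Dicer iKO against 46.9, 50.5 and 33.4 CPM. Both mutants overlapped with their controls, and the 95% confidence intervals of the log2 differences were -0.28 to 0.35 in Dgcr8 iKO and -0.52 to 0.38 in Dicer iKO.

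The make-up of the phosphofructokinase RNA turned over at 3 dpc. Pfkm held 50.7% ± 7.75 (SD, n = 3) of the TPM summed over the 3 genes in uncrushed and 57.5% ± 3.09 (n = 4) in contralateral SNs, and 11.4% ± 0.906 (n = 4) in crushed SNs. Pfkp went from 24.9% ± 2.34 and 21.3% ± 2.18 to 68.5% ± 1.59, and Pfkl stood at 24.4% ± 7.72, 21.2% ± 1.77 and 20.1% ± 1.85. The summed level of the 3 genes differed less, at 21.2 ± 2.38, 26.2 ± 1.25 and 32.1 ± 4.18 rescaled TPM. In Dgcr8 iKO, Pfkp held 41.0% ± 1.15 against 22.96% ± 3.73 and Pfkm 32.7% ± 6.66 against 51.9% ± 3.09 (SD, n = 3 each). In Dicer iKO, Pfkp held 33.8% ± 3.76 against 23.3% ± 2.67 and Pfkm 36.8% ± 6.75 against 48.7% ± 3.69. The summed levels of the mutants lay within 1 SD of their controls, at 82.3 ± 10.04 against 77.9 ± 8.12 in Dgcr8 iKO and 86.2 ± 8.79 against 88.1 ± 10.8 in Dicer iKO.

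**Figure D4:**
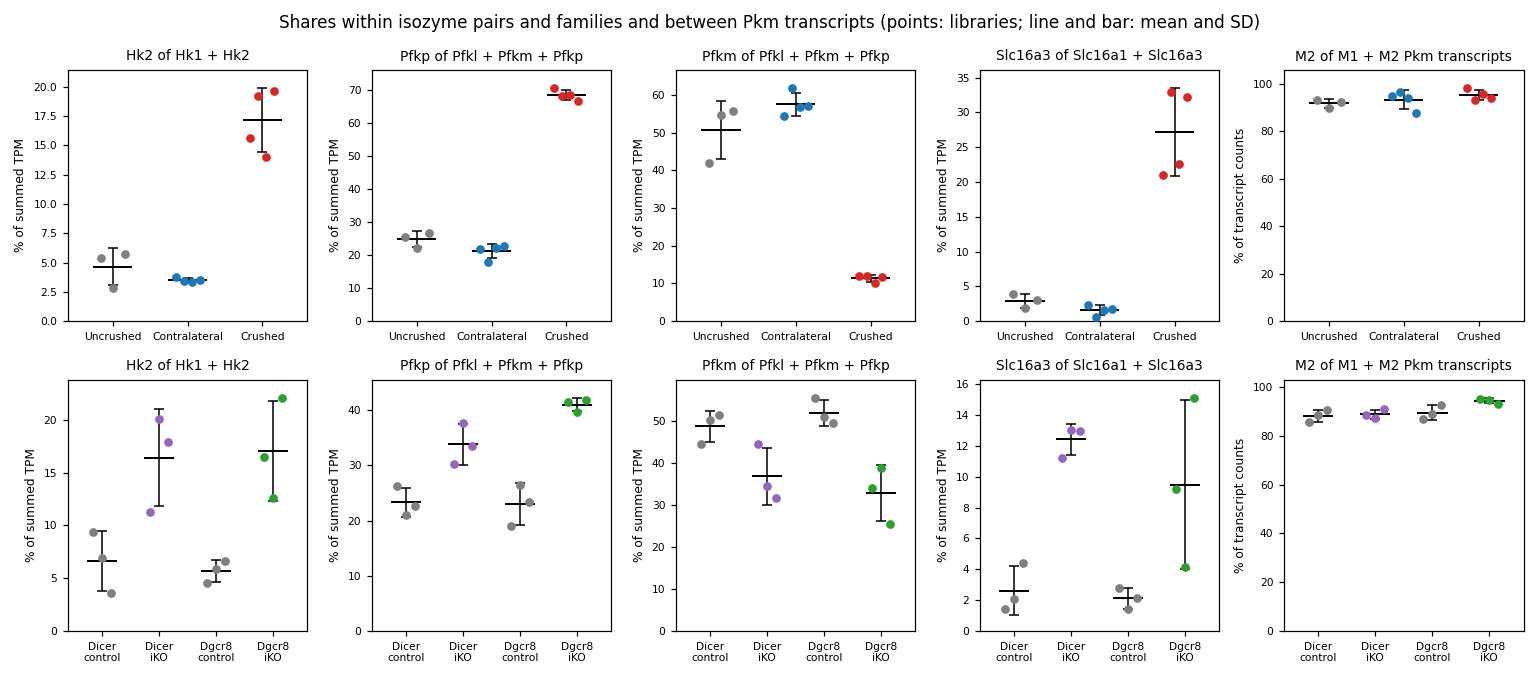
Shares per library (y axis, percent, from 0) of Hk2, Pfkp, Pfkm and Slc16a3 in the summed TPM of their families, and of the M2 transcript in the counts of both Pkm transcripts, for crush libraries (top) and iKO libraries (bottom). Lines and bars are the mean and SD; Pfkp and Pfkm change places at 3 dpc (68.5% and 11.4%) and Pfkp is above Pfkm on average in Dgcr8 iKO, while M2 holds most Pkm counts in every library.

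Of the genes that set phosphofructokinase activity, Pfkfb4, which makes its activator fructose 2,6-bisphosphate, was higher in crushed SNs (log2 2.34 and 2.13), Dgcr8 iKO (1.26) and Dicer iKO (1.19). Pfkfb3, of the same function, was higher against uncrushed SNs (0.55) and in both mutants (0.71 in Dgcr8 iKO and 0.72 in Dicer iKO), and its log2 difference against contralateral SNs was 0.19 and did not pass. Tigar, which breaks that activator down, was higher in crushed SNs (0.73 and 0.76) and in Dgcr8 iKO (1.19). Pfkfb2 was lower against contralateral SNs (-0.38) and passed in none of the others, and Pfkfb1 passed in none of the comparisons in which it was tested.

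Pgk1 and Pkm catalyse later steps. Pgk1 (ENSMUSG00000062070, X chromosome, 106187100 to 106203699, plus strand) was at 136, 138, 138 and 121 CPM in crushed SNs against 48.7, 51.7, 45.8 and 36.4 CPM in contralateral and 49.4, 43.4 and 37.1 CPM in uncrushed SNs. The crushed group stood well above both, by 2.82-fold against uncrushed (log2 1.49 ± 0.11 (SE), adjusted p = 1.49e-07 by edgeR's quasi-likelihood test) and 2.64-fold against contralateral SNs (log2 1.40 ± 0.10, adjusted p = 1.36e-08). In Dgcr8 iKO it was at 208, 188 and 205 CPM against 175, 133 and 160 CPM, with no overlap, and the log2 difference of 0.36 ± 0.14 just missed the threshold (adjusted p = 0.0545). Dicer iKO SNs held it at 142, 158 and 152 CPM against 130, 143 and 138 CPM, a log2 difference of 0.14 (95% CI -0.07 to 0.35). Pgk1, Pkm and Ldha have near-identical processed copies in the mouse genome, so a part of their reads could have been assigned to those copies, and their absolute levels are uncertain for that reason.

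Pkm (ENSMUSG00000032294, chromosome 9, 59656368 to 59679375, plus strand) encodes the muscle-type pyruvate kinase. It was at 229, 263, 252 and 219 CPM in crushed SNs against 121, 129, 112 and 106 CPM in contralateral and 111, 100.5 and 91.6 CPM in uncrushed SNs. The rise was 2.19-fold against uncrushed (log2 1.13 ± 0.10 (SE), adjusted p = 1.03e-06 by edgeR's quasi-likelihood test) and 1.86-fold against contralateral SNs (log2 0.90 ± 0.08, adjusted p = 2.25e-07). The mutants overlapped with their controls. Pkm was at 388, 344 and 438 CPM in Dgcr8 iKO against 388, 314 and 368 CPM, and at 308, 350 and 366 CPM in Dicer iKO against 376, 389 and 331 CPM. The 95% confidence intervals of the log2 differences were -0.21 to 0.46 and -0.36 to 0.17.

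Pkm RNA is spliced to hold 1 of 2 alternative exons, which give the M1 or the M2 form of the enzyme. The files list 2 Pkm transcripts, 1 with each exon, and the authors' software apportioned the reads between them. Both exons are 167 bases long and are exon 9 of their transcript, M1 at chr9:59675029-59675195 and M2 at chr9:59675568-59675734 on the plus strand. Their sequences are shown because they are what tells the 2 transcripts apart. Capitals mark the 64 of 167 aligned bases that differ between the exons, which are 61.7% identical.
Pkm M1 exon: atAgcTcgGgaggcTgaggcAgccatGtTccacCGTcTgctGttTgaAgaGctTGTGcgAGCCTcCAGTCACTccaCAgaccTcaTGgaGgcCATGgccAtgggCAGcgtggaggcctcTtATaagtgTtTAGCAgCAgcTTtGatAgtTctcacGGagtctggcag
Pkm M2 exon: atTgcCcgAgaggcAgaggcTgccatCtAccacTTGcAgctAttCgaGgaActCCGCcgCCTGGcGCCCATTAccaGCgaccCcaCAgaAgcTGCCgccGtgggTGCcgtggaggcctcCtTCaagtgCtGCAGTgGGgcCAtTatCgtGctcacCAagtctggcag

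M2 was the main form in every group. Its counts were 2573, 2755, 2413 and 2052 in crushed SNs, and those of M1 49.2, 199, 112 and 128. The M2 share of both was 98.1%, 93.3%, 95.6% and 94.1% in crushed SNs, 94.9%, 96.6%, 94.2% and 87.7% in contralateral SNs and 93.4%, 89.7% and 92.3% in uncrushed SNs. The crushed group overlapped with both others. By a two-sided exact permutation test, its mean share of 95.3% against the 91.8% of uncrushed SNs gave p = 0.114, where 4 against 3 libraries cannot go below 0.0571. Against the 93.3% of contralateral SNs the exact permutation test gave p = 0.543, where the smallest possible value is 0.0286. Fitted with all transcripts, M2 rose at 3 dpc by log2 1.11 ± 0.09 (SE) against uncrushed (adjusted p = 0.000142 by edgeR's quasi-likelihood test) and 0.88 ± 0.09 against contralateral SNs (adjusted p = 7.94e-05), where 35.2% and 39.9% of transcripts passed. The M1 transcript differed by 0.30 ± 0.43 and 0.42 ± 0.47 and did not pass.

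In Dgcr8 iKO, the M2 share was 95.2%, 94.8% and 93.1% against 86.8%, 89.0% and 92.6% in the controls. The groups did not overlap, and the difference of 4.86 percentage points had p = 0.1, the smallest p that an exact permutation test of 3 against 3 libraries can give. In Dicer iKO, the share was 88.6%, 87.1% and 90.8% against 85.5%, 88.7% and 90.4%, within the range of the controls but for its highest library (exact permutation p = 0.8). Adjusted over the 5 comparisons, p was between 0.286 and 0.8. The fitted log2 differences in Dgcr8 iKO were -0.72 ± 0.31 (SE) for M1 (adjusted p = 0.193 by edgeR's quasi-likelihood test) and 0.24 ± 0.14 for M2 (adjusted p = 0.337), and neither passed, where 14.7% of transcripts did. In Dicer iKO, the differences were -0.21 for M1 and -0.09 for M2, and neither passed, where 1.32% of transcripts did.

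Of 5 splice factors known to choose between the Pkm exons, 4 were higher in crushed SNs, where 33.8% and 33.5% of all genes were. Ptbp1, Hnrnpa1 and Hnrnpa2b1, which favour M2, were higher by log2 1.52, 1.71 and 1.2 against uncrushed and 1.17, 1.66 and 1.01 against contralateral SNs, and Srsf3 by 0.86 and 0.73. In Dgcr8 iKO, Ptbp1 was higher (0.66) and Rbm4 lower (-0.53), and in Dicer iKO none of the 5 passed.

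Ldha (ENSMUSG00000063229, chromosome 7, 46841475 to 46855627, plus strand) was at 90.5, 113, 96.4 and 92.4 CPM in crushed SNs against 45.4, 46.2, 42.9 and 34.5 CPM in contralateral and 41.3, 36.9 and 31.3 CPM in uncrushed SNs. The crushed libraries stood clear of both unlesioned groups, by 2.46-fold against uncrushed (log2 1.3 ± 0.11 (SE), adjusted p = 8.79e-07 by edgeR's quasi-likelihood test) and 2.11-fold against contralateral SNs (log2 1.07 ± 0.10, adjusted p = 2.6e-07). Dgcr8 iKO SNs held it at 178, 157 and 180 CPM against 119, 118 and 105 CPM, a rise of 1.5-fold (log2 0.58 ± 0.12, adjusted p = 0.00285). Dicer iKO SNs held it at 126, 131 and 151 CPM against 105, 111 and 100.2 CPM. Neither mutant overlapped with its controls, and the Dicer difference of log2 0.37 ± 0.10 passed (adjusted p = 0.0386), but with any one of the 3 controls or Dicer iKO 2 or 3 left out it did not (adjusted p = 0.0599 to 0.131). Ldhb, the subunit that favours the reverse reaction from lactate to pyruvate, was lower in crushed SNs (log2 -2.35 and -2.68), Dgcr8 iKO (-1.3) and Dicer iKO (-0.82). Ldhd, which acts on D-lactate, was higher in crushed SNs (0.64 and 0.80) and lower in Dgcr8 iKO (-0.77).

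Slc16a1 (ENSMUSG00000032902, chromosome 3, 104638668 to 104658462, plus strand), which encodes MCT1, was at 20.3, 29.3, 24.5 and 23.6 CPM in crushed SNs. It was at 38.3, 39.1, 38.7 and 35.6 CPM in contralateral and 25.7, 32.9 and 35.3 CPM in uncrushed SNs. The crushed libraries were all below the contralateral ones, while Crushed 2 was above Uncrushed 1. The fall was 1.71-fold against contralateral SNs (log2 -0.78 ± 0.10 (SE), adjusted p = 7.08e-06 by edgeR's quasi-likelihood test) and 1.39-fold against uncrushed SNs (log2 -0.47 ± 0.14, adjusted p = 0.00926). The call against uncrushed SNs was lost without Uncrushed 2 or Uncrushed 3 (log2 -0.40 and -0.35, adjusted p = 0.0503 and 0.0583). In Dgcr8 iKO it was at 103, 116 and 80.7 CPM against 110, 97.8 and 124 CPM, with overlap and a log2 difference of -0.15 (95% CI -0.49 to 0.18). In Dicer iKO it was at 70.1, 98.6 and 73.1 CPM against 194, 144 and 95.04 CPM. Dicer control 3 lay among the mutants, and the log2 difference of -0.84 ± 0.26 did not pass (adjusted p = 0.0538), but it was -1.07 without that library and passed (adjusted p = 0.0064).

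Slc16a3 (ENSMUSG00000025161, chromosome 11, 120948480 to 120960868, plus strand), which encodes MCT4, had the lowest level of the 10 genes. It was at 2.45, 4.98, 2.70 and 4.42 CPM in crushed SNs, from 27 to 56 counts. It was at 0.73, 0.23, 0.39 and 0.59 CPM in contralateral SNs, from 3 to 8 counts, and at 1.11, 0.59 and 0.61 CPM in uncrushed SNs, from 4 to 13 counts. The unlesioned libraries were thus close to the level of 3 counts, and all crushed libraries lay above them. The counts were 25 to 49 in Dgcr8 iKO against 5 to 13, and 18 to 41 in Dicer iKO against 7 to 12. The gene thus passed the filter through the groups where it is high, and with no filter its call stood in the 4 comparisons, at log2 2.25, 2.93, 2.13 and 1.78 for crushed against uncrushed, crushed against contralateral, Dgcr8 iKO and Dicer iKO. The fitted rise was 4.1-fold against uncrushed (log2 2.03 ± 0.39 (SE), adjusted p = 0.000598 by edgeR's quasi-likelihood test) and 6.78-fold against contralateral SNs (log2 2.76 ± 0.37, adjusted p = 1.23e-05). In Dgcr8 iKO it was at 4.35, 2.37 and 5.71 CPM against 0.71, 0.67 and 1.35 CPM, a rise of 4.36-fold (log2 2.13 ± 0.44, adjusted p = 0.00262). In Dicer iKO it was at 2.39, 5.39 and 5.71 CPM against 1.29, 1.60 and 0.95 CPM, a rise of 3.46-fold (log2 1.79 ± 0.43, adjusted p = 0.0258). Neither mutant overlapped with its controls. The Dicer call was lost without Dicer control 2 or 3 or Dicer iKO 2 or 3 (adjusted p = 0.0539 to 0.11).

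Slc16a3 held 27.2% ± 6.26 (SD, n = 4) of the TPM summed over both transporters in crushed SNs, 9.48% ± 5.49 (n = 3) in Dgcr8 iKO against 2.13% ± 0.682, and 12.4% ± 1.03 in Dicer iKO against 2.62% ± 1.57. In unlesioned SNs of the crush experiment, it was 1.57% ± 0.684 (n = 4) and 2.93% ± 1.04 (n = 3), which rest on few counts and on TPM values given with 2 decimals. Emb, a membrane chaperone of monocarboxylate transporters, was higher in crushed SNs (log2 4.56 and 4.77) and Dgcr8 iKO (1.83), while its log2 difference of 1.43 in Dicer iKO did not pass. Slc16a7, which encodes MCT2, was higher in crushed SNs (0.70 and 0.60) and Dgcr8 iKO (0.95), and Bsg, the chaperone of MCT1 and MCT4, passed in no comparison.

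The order of the 10 genes by rescaled TPM was led by Pkm and ended with Slc16a3 in all 7 groups. Uncrushed SNs held Pkm at 52.0 ± 5.69, Hk1 at 35.9 ± 9.001, Ldha at 30.8 ± 4.91 and Pgk1 at 30.2 ± 3.54 (SD, n = 3), and the last 3 overlapped. Crushed SNs held Pkm at 141 ± 10.2, Pgk1 at 106 ± 4.48, Ldha at 92.4 ± 8.19 and Hk1 at 44.5 ± 7.89 (SD, n = 4), where Pgk1 and Ldha overlapped with each other. Pfkm went from the fifth place in uncrushed and contralateral SNs to the ninth in crushed SNs, and Pfkp from the seventh to the fifth. In the iKO experiment, Pkm was at 282 TPM in Dgcr8 controls and 340 TPM in Dgcr8 iKO, and Ldha at 145 ± 7.67 and 242 ± 10.3 TPM (SD, n = 3 each). Pfkm and Pfkp were neighbours that overlapped in both mutants (27.3 and 33.7 TPM in Dgcr8 iKO, 31.4 and 29.3 TPM in Dicer iKO), whereas Pfkm was above Pfkp without overlap in both control groups (40.3 and 17.9 TPM, and 42.9 and 20.4 TPM).

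The other genes of glucose and lactate metabolism were taken from 10 lists with 64 genes in all. In crushed SNs, 23 of 54 tested were higher and 15 lower against uncrushed (33.8% and 33.4% of all genes), and 22 higher and 14 lower against contralateral SNs (33.5% and 32.9%). In Dgcr8 iKO, 12 of 54 were higher and 15 lower (23.9% and 20.6% of all genes), and in Dicer iKO, 5 of 54 were higher and 8 lower (12.3% and 8.88%). Between contralateral and uncrushed SNs, 0 of 55 passed by edgeR. The median log2 fold change over the lists was 0.13, -0.01, -0.06 and -0.06 in these 4 comparisons in the order crushed against uncrushed, crushed against contralateral, Dicer iKO and Dgcr8 iKO, beside -0.03, -0.06, -0.01 and -0.01 over all genes tested.

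**Figure D5:**
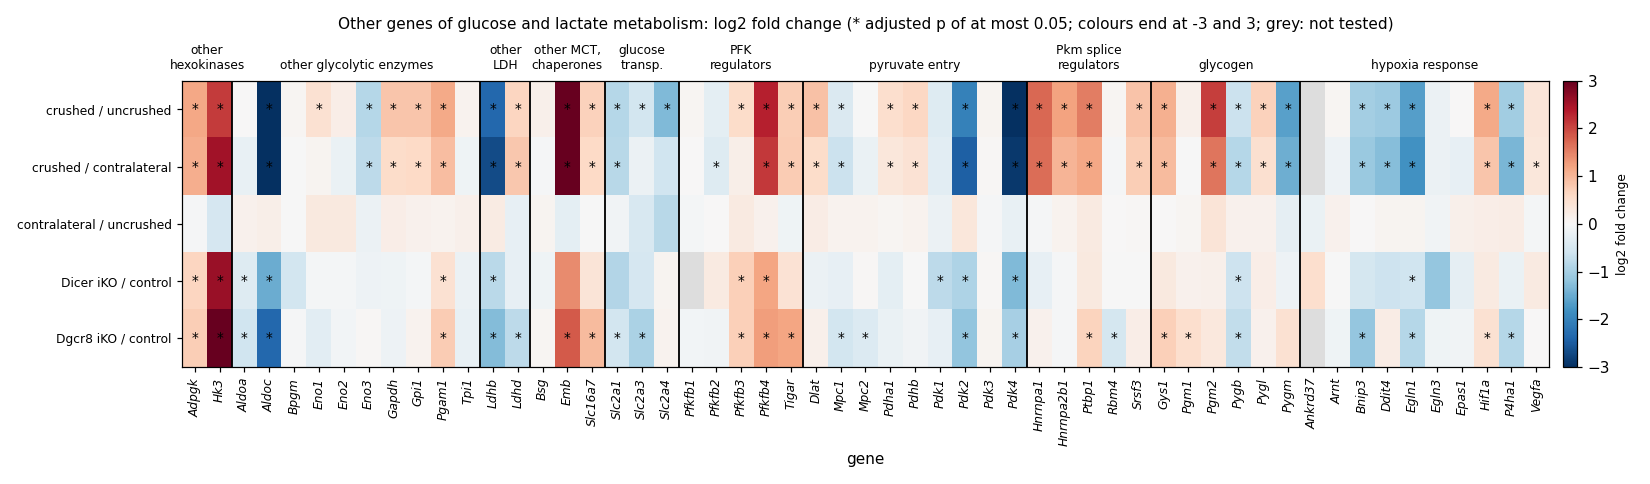
Log2 fold change (colour) of the tested genes of the 10 lists (x axis) in the 5 comparisons (y axis), with an asterisk at an adjusted p of at most 0.05 and grey for genes not tested. Aldoc, Ldhb, Pdk2 and Pdk4 are lower and Hk3, Pgam1 and Pfkfb4 higher in crushed SNs and in both mutants, and no gene has an asterisk between contralateral and uncrushed SNs.

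Of the other glycolytic enzymes, 4 of 10 tested were higher and 2 lower against uncrushed SNs (33.8% and 33.4% of all genes). Against contralateral SNs, 3 were higher and 2 lower (33.5% and 32.9% of all genes). Pgam1, Gapdh and Gpi1, enzymes of the middle and the start of the pathway, were higher in both (log2 1.13 and 0.94 for Pgam1, 0.83 and 0.54 for Gapdh, 0.82 and 0.60 for Gpi1), and Eno1 was higher against uncrushed SNs (0.46; 0.08 against contralateral SNs, not called). The aldolase Aldoc, known from neural tissue, was lower by log2 -3.53 and -3.79, and Eno3, the muscle-type enolase, by -0.86 and -0.79. In both mutants, Pgam1 was higher (0.75 in Dgcr8 iKO and 0.46 in Dicer iKO), and Aldoc (-2.36 and -1.50) and Aldoa (-0.60 and -0.39) were lower. Tpi1, Bpgm and Eno2 passed in no comparison. Gapdhs, Pgk2, Pgam2 and Pklr were not tested in any.

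Glucose transporters were not among the genes that rose. Slc2a1, which encodes GLUT1 and is also high in perineurial cells, was lower in crushed SNs (log2 -0.85 and -0.84) and Dgcr8 iKO (-0.55), and its log2 difference in Dicer iKO was -0.87 and did not pass. Slc2a3 was lower against uncrushed SNs (-0.56) and in Dgcr8 iKO (-0.95), and Slc2a4 against uncrushed SNs (-1.33). The summed level of 3 perineurial genes, Slc2a1 among them, was 113 to 132 CPM in crushed SNs against 291 to 453 CPM in unlesioned SNs, 420 to 528 CPM in Dgcr8 iKO against 552 to 877 CPM, and 484 to 630 CPM in Dicer iKO against 724 to 1440 CPM. Itgb4, another of the 3, was lower in crushed SNs and in both mutants. Cldn1 was higher in Dgcr8 iKO (log2 2.44) and not called in crushed SNs (0.46 and 0.78) or Dicer iKO (-0.60). The part of perineurial cells was not tested. Pdk2 and Pdk4, kinases that hold back the entry of pyruvate into the citric acid cycle, were lower in crushed SNs (Pdk2 -2.02 and -2.46, Pdk4 -3.03 and -2.90), Dgcr8 iKO (-1.19 and -1.0) and Dicer iKO (-0.92 and -1.32). The pyruvate dehydrogenase subunits Pdha1, Pdhb and Dlat were higher in crushed SNs (0.35 to 0.87) and not called in the mutants (-0.29 to 0.15), and the pyruvate carrier subunit Mpc1 was lower in crushed SNs (-0.44 and -0.65) and Dgcr8 iKO (-0.55).

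Glycogen synthase Gys1 was higher in crushed SNs (log2 1.06 and 0.95) and Dgcr8 iKO (0.72). The glycogen phosphorylases split, with the liver-type Pygl higher in crushed SNs (0.70 and 0.47), the muscle-type Pygm lower there (-1.63 and -1.46), and the brain-type Pygb lower in crushed SNs (-0.64 and -0.86), Dgcr8 iKO (-0.73) and Dicer iKO (-0.63). Of the genes of the hypoxia response, 1 of 9 tested was higher and 4 lower against uncrushed SNs (33.8% and 33.4% of all genes). Against contralateral SNs, 2 and 4 were called (33.5% and 32.9%). In the mutants, 1 and 3 of 9 were called in Dgcr8 iKO (23.9% and 20.6%), and 0 and 1 of 10 in Dicer iKO (12.3% and 8.88%). Hif1a, the oxygen-regulated transcription factor, was higher in crushed SNs (1.13 and 0.84) and Dgcr8 iKO (0.45), and Vegfa against contralateral SNs (0.34). The known Hif1a targets Egln1 (-1.65 and -1.82), Bnip3 (-1.01 and -1.12), P4ha1 (-1.05 and -1.36) and Ddit4 (-1.09 and -1.28) were lower in crushed SNs. Ldha and Pgk1, which are among the targets of the same factor, were higher there. The part of this factor in these values was not tested.

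The promoters of the members were searched for ACGTG, the core of the element that this factor binds, and for CACGTG, an E-box that contains it, on both strands of RefSeq windows (GRCm38.p6) from 250 bases before to 50 bases after each start. Of 32851 windows of all genes, 19.6% held ACGTG and 7.15% CACGTG. Of the 16 windows of the members, 9 held ACGTG, which is the count to set beside the share per window. They belong to 8 of the 10 members, namely Hk1, Hk2, Ldha, Pfkm, Pgk1, Pkm, Slc16a1 and Slc16a3. No share per gene is given for that count. The matches of Hk1 lie 8 and 17 bases into the transcript. CACGTG was found for Ldha, Pfkm and Slc16a1, of which Ldha was higher and the others lower in crushed SNs. A match says only that these letters are present. The stretches around the matches upstream of the start are shown for 3 members that rose and 2 that fell in crushed SNs. Not shown are the stretches of Pkm and Slc16a3 and that of a second Pfkm window, with a match 244 bases before another start. Each is printed on the strand of its gene, with capitals at ACGTG or, for a match on the other strand, CACGT.
Ldha promoter, chr7:46845644-46845789, plus strand: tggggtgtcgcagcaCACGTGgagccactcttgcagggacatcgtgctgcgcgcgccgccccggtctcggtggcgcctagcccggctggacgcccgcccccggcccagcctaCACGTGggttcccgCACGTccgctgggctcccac
Hk2 promoter, chr6:82774487-82774695, minus strand: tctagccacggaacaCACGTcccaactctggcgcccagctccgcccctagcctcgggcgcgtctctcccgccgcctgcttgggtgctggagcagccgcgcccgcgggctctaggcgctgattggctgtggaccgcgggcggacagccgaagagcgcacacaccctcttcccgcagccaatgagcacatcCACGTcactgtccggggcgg
Pgk1 promoter, chrX:106186935-106186988, plus strand: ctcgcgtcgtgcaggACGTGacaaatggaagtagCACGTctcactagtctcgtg
Pfkm promoter, chr15:98092438-98092473, plus strand: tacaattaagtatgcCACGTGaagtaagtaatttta
Slc16a1 promoter, chr3:104638449-104638484, plus strand: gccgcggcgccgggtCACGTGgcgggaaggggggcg

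The genes most alike to each member were found by the lower of 2 Pearson correlations of log2(CPM + 1), over the 11 crush libraries and over the 12 iKO libraries, among 12478 genes. The libraries of 1 group share their condition, so these values describe shared group differences and carry no p. For Hk2 they were Tnfaip8l2 (r = 0.97 and 0.98) and Col6a3 (0.98 and 0.97), for Slc16a3 AB124611 (0.97 and 0.98) and Sdcbp (0.96 and 0.97), and for Ldha Pgd, an enzyme of the pentose phosphate pathway (0.98 and 0.98), and Actg1 (0.98 and 0.98). Pfkm was closest to Gabarapl2 (0.97 and 0.97) and Spock2 (0.98 and 0.97), and Pfkp to Eri1 (0.98 and 0.96) and Serpinh1, a collagen chaperone (0.96 and 0.96). Pgk1 was closest to Cct3 (0.99 and 0.95) and Ddb1 (0.98 and 0.94), and Pkm to Tmx1 (0.97 and 0.92). The closest genes were less alike for Slc16a1 (Neo1, 0.89 and 0.82), Hk1 (Ing5, 0.91 and 0.83) and Pfkl (Mkrn1, 0.76 and 0.79).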

How the data were processed

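RNA sequencing libraries of whole SNs were grouped by the labels, 11 of the crush and 12 of the iKO experiment. Per the labels and the study's methods, the authors used Trimmomatic for trimming, STAR for alignment and RSEM for quantification on Ensembl GRCm38, 1 table of transcripts a library. The deposited tables hold expected counts (estimated, not whole), TPM and FPKM with 2 decimals for each transcript, of which the authors' FPKM was not used. Here gene counts are the rounded sums over the transcripts of a gene, and TPM was rescaled to transcripts of at least 300 bases, since 1 shorter transcript held 61.4% to 71.8% of the deposited TPM in the crush libraries.

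Each comparison was fitted over all genes that passed filterByExpr (minimum count 10) with edgeR 4.0.16 (TMM scaling, glmQLFit and glmQLFTest, limma 3.58.1, R 4.3.3) and Benjamini-Hochberg adjustment, with a threshold of 0.05. DESeq2 1.42.0, RLE scaling, no filter, 1 fit over all groups, a replicate block and leaving out each library were alternatives. Exact permutation tests used scipy 1.17.1. The fits were tested on simulated data. P-values set a difference between groups against the spread between these samples. Crushed and contralateral SNs were fitted as independent libraries, though both nerves of a mouse can be among them, so their p-values ignore shared animals. All 10 members are described, and for each the 2 most alike genes were found by the rule given with their values; a few items are not reported here. The members and lists were chosen with earlier results of these data known.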

Additional observations from a re-analysis of the deposited data

Results flagged for a closer look

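Of 32 sets of 4 libraries examined, 2 held a library apart from the others by Dixon's criterion, which chance alone meets in about 1 in 20 groups. Pgk1 was at 121 CPM in Crushed 4 against 136 to 138 CPM in the other crushed SNs. The share of Pfkm in the summed phosphofructokinase TPM was 10.04% in 1 crushed library against 11.7% to 11.9% in the other 3. Both values remained far from those of the unlesioned SNs.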

How the results depend on the processing

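Against uncrushed SNs, 1 member was lower in place of 2 without the filter and with DESeq2. Of all genes, 5710 and 4059 of 36681 were lower there, in place of 5821 of 17433. With the replicate block and in 1 fit of all groups, 6 members were higher in place of 7. Of all genes, 5656 of 17433 and 5340 of 18394 were higher there, in place of 5891 of 17433. In Dicer iKO, in place of 2 higher and 2 lower, 1 and 3 members were called without the filter. With DESeq2 and in 1 fit of all groups, 3 and 3 were called. Of all genes, 1564 and 1136 of 17122 passed without the filter, 1670 and 1360 of 17122 with DESeq2, and 1948 and 1422 of 13552 in 1 fit. In the main fit, 1605 and 1159 of 13045 passed. With the replicate block, 0 and 0 members and 687 and 242 of 13045 genes passed. The block left 548 and 92 genes with at least 2-fold changes against 961 and 214. In Dgcr8 iKO, 5 members were higher in place of 4 with DESeq2 and in 1 fit. Of all genes, 3093 of 18321 and 3214 of 13552 were higher there, in place of 3165 of 13252. With the block, 1 member was lower in place of 2, and 2403 of 13252 genes were lower in place of 2733. Between contralateral and uncrushed SNs, 13 genes were at least 2-fold higher and 128 lower without the filter, 6 lower with the block and 1 lower in 1 fit of all groups, against 0. In the interaction, 17 and 3 genes passed without the filter, 165 and 63 with DESeq2, 0 and 0 with the block, and 0 lower with RLE. The cause was not tested.

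With 1 library left out, the members higher and lower numbered 6 to 7 and 1 to 2 against uncrushed SNs, 6 and 2 against contralateral SNs, 0 to 3 and 0 to 3 in Dicer iKO, and 4 and 1 to 2 in Dgcr8 iKO. Genes with at least 2-fold changes numbered 2498 to 2891 and 3210 to 4024, 2282 to 2536 and 2302 to 2645, 515 to 1093 and 57 to 375, and 1713 to 1862 and 850 to 1100 in the same order, 0 to 95 lower between contralateral and uncrushed SNs, and 0 to 320 and 0 to 81 in the interaction. The M2 share differed by 2.42 to 4.25, 0.0537 to 3.00, 0.459 to 3.41, -0.735 to 1.75 and 3.51 to 6.43 percentage points.

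Log2 differences near 0 that were not called changed sign. Hk1 against uncrushed SNs was -0.0901 in 1 fit of all groups and -0.0318 to 0.0812 with 1 library left out, and against contralateral SNs 0.0179 without the filter. Pfkl against contralateral SNs was 0.13 without the filter, 0.0555 with DESeq2 and -0.0951 to 0.00614 with 1 library left out, and in the same way -0.236 to 0.0811 in Dicer iKO, -0.103 to 0.122 in Dgcr8 iKO and -0.0259 to 0.274 in the interaction. Pgk1 between contralateral and uncrushed SNs was 0.0126 with RLE, 0.0419 without the filter, 0.0813 with DESeq2, 0.0905 with the replicate block, 0.00148 in 1 fit of all groups and -0.0716 to 0.117 with 1 library left out. Pooled over the comparisons, same-number correlations were -0.204 to 0.223, with 10 of 32 libraries most alike to their own number. This pool cannot exclude pairing, since only crushed and contralateral SNs can come from the same mouse. Between these, 4 of 8 libraries were most alike to their own number. Their mean correlation was 0.043 for the same number and -0.014 for other numbers. So few libraries cannot decide whether equal numbers mark 1 mouse. Differences between groups in isozyme shares, taken from counts per base, moved by less than the larger of the SDs of the groups compared. With 1 library left out, these differences cannot move further than that, since dropping 1 value shifts a mean by less than the SD. Leaving out 1 library therefore does not test by this limit whether the shares are stable. Both alternatives were chosen after seeing the data.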
